A study of Mus musculus with 46 samples.

Results

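The libraries described here are from the right striatum of 15 mice of 12 weeks of age: 7 R6/2 mice and 8 wild-type (WT) mice, 1 library per mouse, out of 46 striatal and cortical libraries in the series. R6/2 mice, genotype Tg(HDexon1)62Gpb, model Huntington's disease through a transgene that holds exon 1 of human huntingtin with an expanded CAG tract. WT mice carry no transgene, and the labels give the background of all 15 as C57BL6/J. Both groups had received oral vehicle (hydroxypropyl-beta-cyclodextrin in citrate buffer) on a b.i.d. schedule from 4 to 12 weeks of age, so no untreated mouse is included. There were 4 females and 3 males in the R6/2 vehicle group, and 4 females and 4 males in the WT group. Libraries were chosen by these labels alone, and every gene that passed a filter on low counts entered the comparison. A further 8 striatal libraries, of R6/2 mice given 30 mg/kg of a kynurenine 3-monooxygenase inhibitor, were in the same fit but not in the contrast. There they entered the filter, the scaling, the sex term and the estimate of the spread between animals.

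The striatum is the input station of the basal ganglia, and most of its neurons are GABAergic projection neurons, which are the neurons most affected in Huntington's disease. Mutant huntingtin fragments reach the nucleus, where they alter transcription, and in R6/2 mice many genes that are typical of mature striatal neurons are known to decline. The question here was which other pathways, families and functions differed between R6/2 vehicle and WT striatum. All values are for whole tissue, in which fewer cells of a type and less RNA per cell cannot be told apart.

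Library totals ran from 30385125 to 36040325 estimated counts in R6/2 vehicle and from 30475559 to 35115556 in WT. Levels are CPM, counts relative to library size after TMM scaling, and the scaling factors were 1.02 to 1.04 in R6/2 vehicle and 0.931 to 0.954 in WT. Gm12695, at the known R6/2 insertion site, had 3.30 to 4.30 CPM in R6/2 vehicle and 0.0303 to 0.160 CPM in WT, so no library went against its genotype label. WT replicate 1 stood apart: it lay far from the other 7 WT libraries, by Dixon's criterion, for 2064 genes (11.9% of those tested), against at most 158 genes for any other WT library. Among R6/2 vehicle libraries, replicate 2 did so for 366 genes and the others for at most 148. Without WT replicate 1 the comparison below called 8750 genes, and without R6/2 vehicle replicate 2 it called 8507 genes. Of 13 markers of striatal projection neurons none was at 0, 12 were lower and their summed level was 4323 to 4825 CPM in R6/2 vehicle, against 9126 to 12027 CPM in WT. Astrocyte markers (9 of 10 lower) summed to 1271 to 1530 CPM against 1772 to 1937 CPM in WT, and endothelial and pericyte markers (10 of 10 lower) to 420 to 496 CPM against 525 to 660 CPM in WT. Myelin markers (6 of 10 lower) summed to 8015 to 8651 CPM against 9750 to 13745 CPM in WT. Microglial markers (7 of 10 lower) overlapped between the groups, at 396 to 471 CPM against 465 to 607 CPM in WT. These counts depend on scaling. With library totals in place of TMM, 5 endothelial and pericyte markers and 2 microglial markers were lower, and on the authors' FPKM scale 4 and 1. Under both, 10 projection neuron, 9 astrocyte and 5 myelin markers were lower. No marker was at 0 in all 15 libraries, and the part of these cell types in the results below was not tested.

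Of 17394 genes tested, 8735 (50.2%) differed at an adjusted p under 0.05 by edgeR's quasi-likelihood test with Benjamini-Hochberg adjustment, which is what called, rose and fell mean below. In R6/2 vehicle 4480 (25.8%) were higher and 4255 (24.5%) lower. Where 3 levels are given for a group they are its lowest, median and highest library, averages are ± SD (n = 7 R6/2 vehicle and n = 8 WT), and a value in brackets after a gene is its log2 fold change ± SE. At least 2-fold changes were found in 920 genes, of which 209 rose. For 3787 genes the 7 R6/2 vehicle libraries and the 8 WT libraries did not overlap. The balance depends on scaling. With library totals in place of TMM, 7015 genes were higher and 2769 lower, and on the authors' FPKM scale 6950 were higher and 2792 lower. The median over all genes moved up by 0.13 and 0.11 on the log2 scale under these, so list medians below are relative to an all-gene median of 0.00 under TMM. Of the 126 genes named by rule 34 share bases with another annotated gene, among them Dio2, Rspo1, Rab37, Fbxl16, Celf3, Wars, Polb and Bid, and Sphk2 with Dbp. Whether counting kept the strand is not given in the sources used here, so their counts are uncertain to that extent.

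Described by function, 54 gene lists covering 2372 tested genes split unevenly. In 31 lists more members fell than rose, in 20 more rose than fell, and in 3 the counts were equal. Under TMM, library totals and FPKM alike, the balance was the same for 14 downward lists and for all 20 upward lists. It turned or was lost in the other 20 lists. Library totals and FPKM moved the median over all genes upward, so an upward lean could hardly be lost under them. Only a downward lean could readily have turned. The lean is by count alone, and the DNA methylation list is among the upward ones with a median of -0.06. Single-library omissions moved 5 of the smallest counts given below: higher Notch genes to 1 (without R6/2 vehicle replicate 3, 5 or 7 or WT replicate 1), higher calmodulin genes to 1 (without R6/2 vehicle replicate 3 or 5 or WT replicate 1, 3 or 6), higher carbonic anhydrases to 0 (without R6/2 vehicle replicate 2 or 6 or WT replicate 5, 6 or 7), higher tubulins to 1 (without R6/2 vehicle replicate 2 or 7 or WT replicate 8) and lower tRNA synthetases to 2 (without WT replicate 1, 2 or 8). Hormone, calcium and secreted signalling lists were among those with the highest shares of lower genes. Chromatin, RNA, protein synthesis and ubiquitin lists were among those with the highest shares of higher genes.

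**Figure D1:**
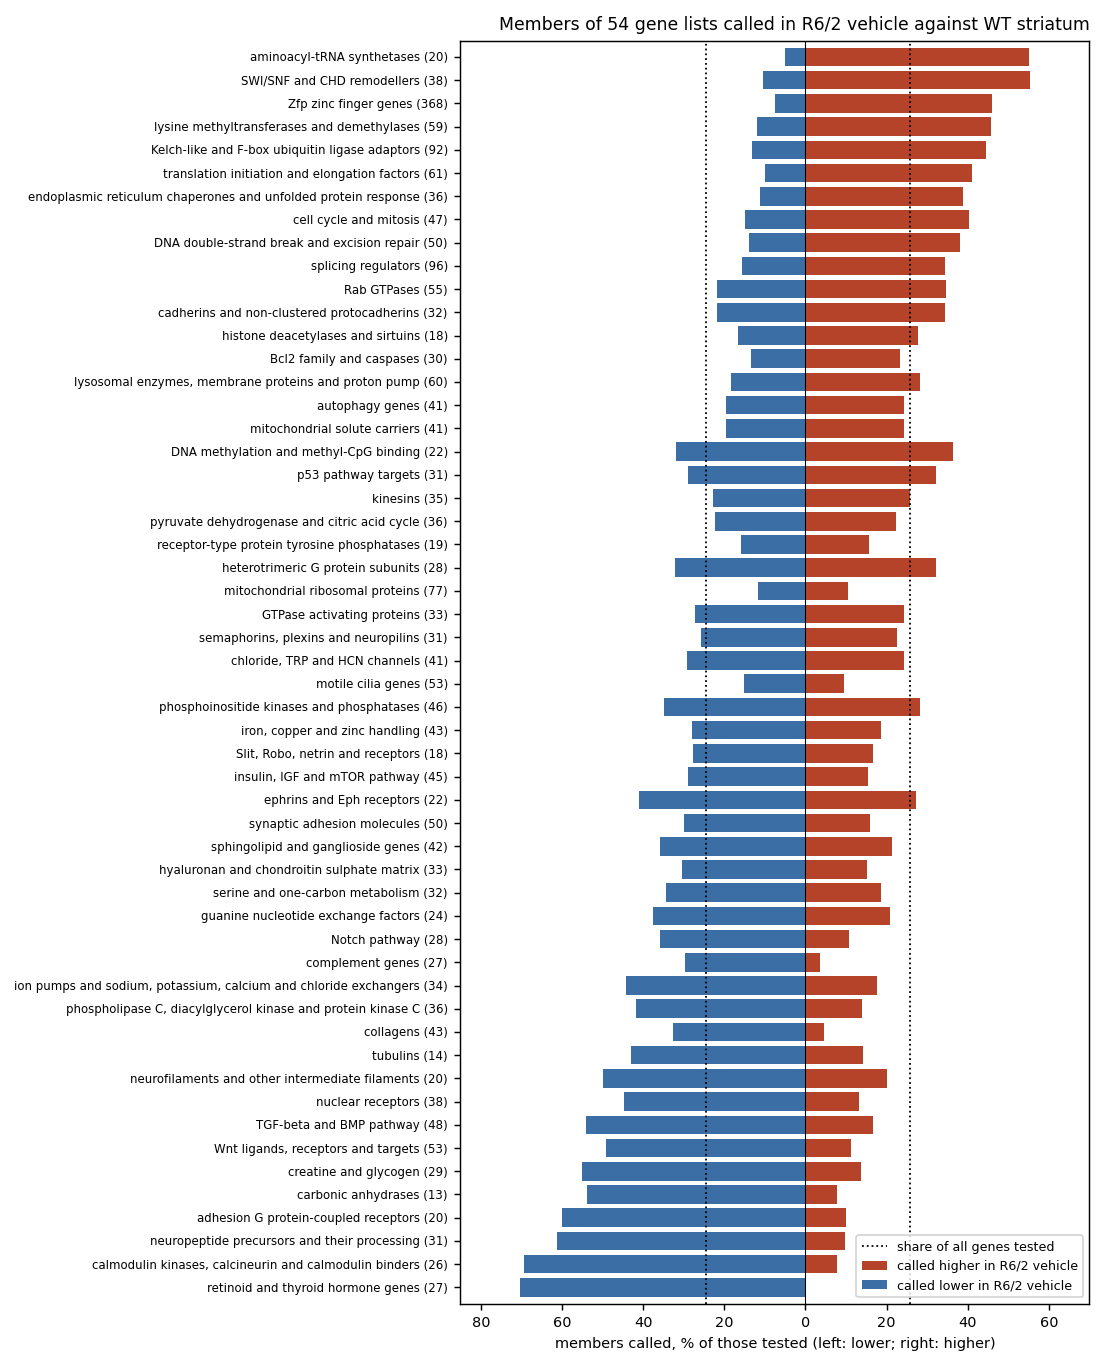
Share of the tested members of each of 54 gene lists that were called higher (red, right) or lower (blue, left) in R6/2 vehicle against WT striatum, with the number tested in brackets. Dotted lines mark the shares over all genes tested, 25.8% higher and 24.5% lower; the retinoid and thyroid hormone list has 70.4% of its members lower and none higher.

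Retinoic acid and thyroid hormone are small lipophilic signals that act through paired nuclear receptors, and the striatum is rich in the retinoid receptors Rarb and Rxrg. Of 27 tested genes of their synthesis, transport and reception, 19 fell and 0 rose, with a median log2 fold change of -0.47. The deiodinase Dio2, which makes active thyroid hormone in astrocytes (chr12:90724552-90738438, mm10), had 27.0, 30.1 and 34.0 CPM in R6/2 vehicle, against 63.9, 76.1 and 88.5 CPM in WT. The groups did not overlap (log2 fold change -1.32 ± 0.13 SE, adjusted p = 3.79e-08). The thyroid hormone binding protein Crym had 34.3, 42.9 and 54.4 CPM in R6/2 vehicle, against 55.7, 109 and 131 CPM in WT (log2 fold change -1.22 ± 0.15 SE, adjusted p = 5.00e-07), again without overlap, although the lowest WT library lay only just above the highest R6/2 one. Aldh1a1, which makes retinoic acid, averaged 30.1 ± 4.22 CPM in R6/2 vehicle and 61.7 ± 8.85 CPM in WT (-1.03 ± 0.11). The receptors Rxrg (-1.08 ± 0.16) and Rarb (-0.74 ± 0.13), the retinoic acid hydroxylase Cyp26b1 (-1.04 ± 0.18), the retinal reductase Dhrs3 (-1.18 ± 0.13), and the thyroid hormone transporter Slco1c1 (-0.47 ± 0.07) fell too. Dio2 and Slco1c1 are also typical of astrocytes or endothelial cells, whose markers fell as given above.

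The wider nuclear receptor list had 17 lower and 5 higher genes out of 38. Nr4a1, an activity-induced orphan receptor, had 18.3, 25.5 and 31.5 CPM in R6/2 vehicle, against 27.0, 52.1 and 90.0 CPM in WT (log2 fold change -1.19 ± 0.29 SE, adjusted p = 0.00145), and its groups overlapped. Of the oestrogen-related receptors, Esrrg (-0.53 ± 0.13), Esrrb (-1.24 ± 0.24) and Esrra (-0.29 ± 0.08) fell, and the mineralocorticoid receptor Nr3c2 rose (0.37 ± 0.07).

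**Figure D2:**
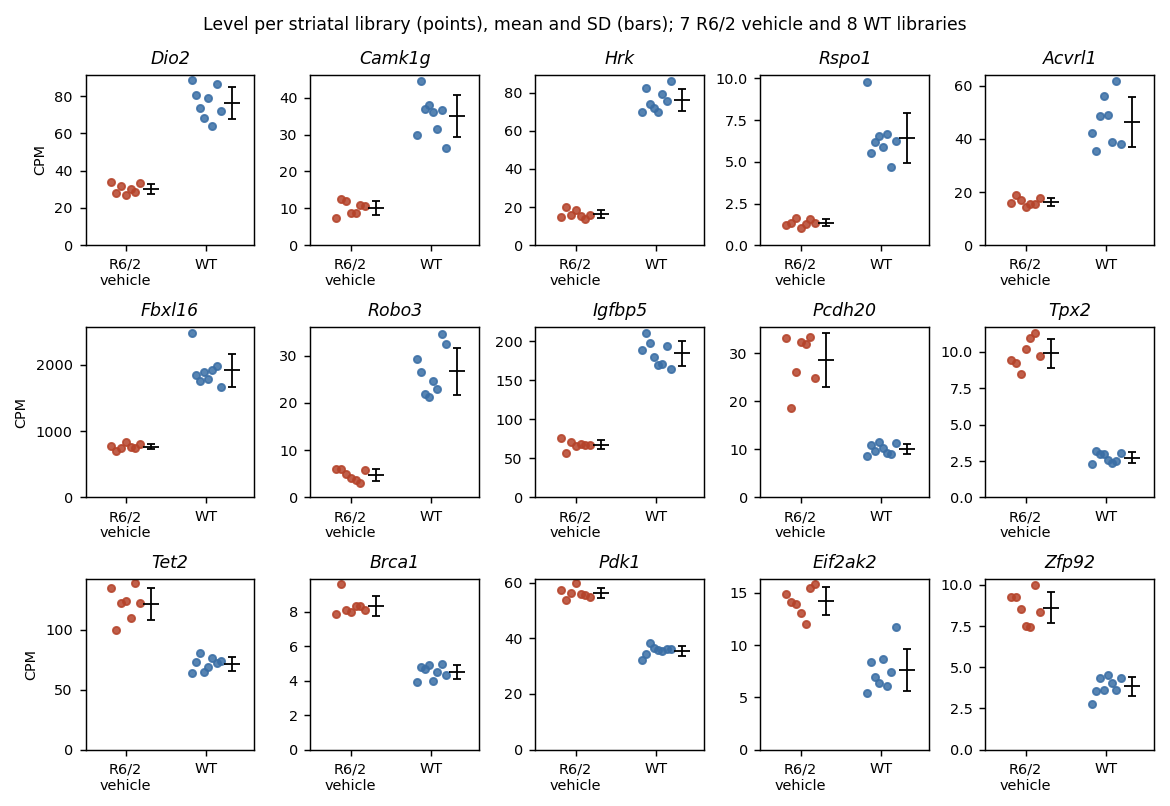
Level in CPM of 15 genes in each of the 7 R6/2 vehicle (red) and 8 WT (blue) striatal libraries, with the mean and SD beside the points. All axes start at 0; in each panel every R6/2 vehicle library lies outside the range of the WT libraries.

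Receptors for neurotransmitters signal through heterotrimeric G proteins, which RGS proteins switch off. The Rgs family had the highest share of lower members among 145 symbol families with at least 12 tested genes: 14 of 20 fell and 3 rose, with a median of -0.56. Rgs11 had 10.8, 11.5 and 13.3 CPM in R6/2 vehicle, against 55.6, 61.7 and 72.1 CPM in WT (log2 fold change -2.43 ± 0.10 SE, adjusted p = 1.32e-14). Rgs14 had 16.3, 18.5 and 18.8 CPM in R6/2 vehicle, against 57.8, 76.0 and 88.4 CPM in WT (log2 fold change -2.04 ± 0.12 SE, adjusted p = 8.22e-12), and Rgs4 had 200.1, 216 and 244 CPM in R6/2 vehicle, against 657, 764 and 920.4 CPM in WT (log2 fold change -1.78 ± 0.15 SE, adjusted p = 3.16e-09). For all 3 the ranges were apart by a wide margin. Rgs19 went the other way, with 17.98, 19.1 and 22.5 CPM in R6/2 vehicle, against 8.66, 10.49 and 12.2 CPM in WT (log2 fold change 0.90 ± 0.06 SE, adjusted p = 1.99e-10), and did not overlap either. Rgs13 and Rgs9bp, the other higher members, averaged under 1 CPM in both groups.

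Among the G protein subunits themselves 9 rose and 9 fell of 28, and 13 rose and 6 fell with library totals. Gng7, the gamma subunit that partners the striatal olfactory-type alpha subunit, had 842, 981 and 1073 CPM in R6/2 vehicle, against 1576, 1761 and 2003 CPM in WT (log2 fold change -0.88 ± 0.17 SE, adjusted p = 1.26e-04). Gng4 had 36.8, 37.96 and 45.4 CPM in R6/2 vehicle, against 18.2, 21.2 and 28.9 CPM in WT (log2 fold change 0.86 ± 0.16 SE, adjusted p = 9.71e-05), so 2 gamma subunits moved in opposite directions, each without overlap between the groups. Gng3 rose as well (0.63 ± 0.07). The serotonin receptors had 7 lower and 2 higher of 12. Htr1b, an inhibitory receptor of striatal axon terminals, had 29.4, 38.2 and 41.9 CPM in R6/2 vehicle, against 61.5, 73.0 and 84.1 CPM in WT (log2 fold change -0.96 ± 0.13 SE, adjusted p = 1.44e-06), and Htr4, which raises cyclic AMP, had 1.36, 2.27 and 2.63 CPM in R6/2 vehicle, against 4.33, 6.94 and 9.29 CPM in WT (log2 fold change -1.65 ± 0.21 SE, adjusted p = 9.30e-07). Htr2c rose to 135, 143 and 151 CPM in R6/2 vehicle, against 63.3, 77.6 and 103 CPM in WT (log2 fold change 0.85 ± 0.08 SE, adjusted p = 2.74e-08). None of these 3 receptors overlapped between the groups. Adhesion G protein-coupled receptors, long receptors that bind neighbouring cells or matrix, had 12 lower and 2 higher of 20. The brain-enriched Adgrb1 (-0.49 ± 0.10) and Adgrb2 (-0.51 ± 0.07) fell, while the latrophilin Adgrl2 had 178, 204 and 206 CPM in R6/2 vehicle, against 118, 148 and 171 CPM in WT (log2 fold change 0.40 ± 0.09 SE, adjusted p = 0.00107) and did not overlap. Adgra1 averaged 16.6 ± 3.87 CPM in R6/2 vehicle and 25.3 ± 8.58 CPM in WT (-0.62 ± 0.22), with overlap, and was not called with library totals, on the FPKM scale, without R6/2 vehicle replicate 5 or without WT replicate 5. Receptor-type tyrosine phosphatases had 3 higher and 3 lower of 19, or 6 and 2 with library totals, with Ptpro at 71.0 ± 4.26 CPM in R6/2 vehicle and 44.0 ± 4.30 CPM in WT (0.69 ± 0.08) and Ptprd at 182 ± 9.92 CPM in R6/2 vehicle and 245 ± 37.1 CPM in WT (-0.43 ± 0.08). Without WT replicate 1, 6 of these phosphatase genes were lower.

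Downstream of Gq, phospholipase C produces diacylglycerol, which activates protein kinase C. Of 36 genes of this route 15 fell and 5 rose. Prkcd had 9.97, 12.1 and 34.2 CPM in R6/2 vehicle, against 15.1, 39.2 and 177 CPM in WT (log2 fold change -2.06 ± 0.48 SE, adjusted p = 0.00104), with overlap. Prkcd is also abundant in thalamus, and its highest values were in R6/2 vehicle replicate 2 and WT replicate 5. These libraries also had the highest sums of markers of neighbouring regions in their groups, 230.1 and 429.8 CPM. Prkcd itself is in that marker list and gives 34.2 and 177 CPM of these sums, so they are not independent of it. The part of such tissue was not tested. Prkcb averaged 327 ± 26.0 CPM in R6/2 vehicle and 579.6 ± 64.8 CPM in WT (-0.82 ± 0.12), and the inositol trisphosphate kinase Itpka 46.2 ± 6.25 CPM in R6/2 vehicle and 117 ± 21.1 CPM in WT (-1.34 ± 0.21). Prkcq, another kinase of the family, rose, with 23.0, 26.0 and 28.8 CPM in R6/2 vehicle, against 15.1, 16.2 and 17.2 CPM in WT (log2 fold change 0.70 ± 0.07 SE, adjusted p = 1.26e-08), and did not overlap.

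Calcium signals in neurons are read by calmodulin, its kinases and the phosphatase calcineurin. In this list 18 of 26 genes fell and 2 rose, with a median of -0.48. Camk1g had 7.35, 10.6 and 12.5 CPM in R6/2 vehicle, against 26.3, 36.4 and 44.4 CPM in WT (log2 fold change -1.81 ± 0.21 SE, adjusted p = 2.20e-07), with no overlap. Camk2n1, an inhibitor of CaM kinase II, averaged 451 ± 66.9 CPM in R6/2 vehicle and 1563 ± 251 CPM in WT (-1.79 ± 0.14), and the calmodulin-binding peptide Pcp4 220.4 ± 24.4 CPM in R6/2 vehicle and 719 ± 80.4 CPM in WT (-1.70 ± 0.14). The calmodulin genes Calm2 (-0.31 ± 0.07) and Calm3 (-0.28 ± 0.04) fell. The catalytic calcineurin subunit Ppp3ca averaged 1221 ± 115 CPM in R6/2 vehicle and 2473 ± 163 CPM in WT (-1.02 ± 0.12). The calcineurin inhibitor family was split: Rcan3 had 89.2, 93.2 and 101 CPM in R6/2 vehicle, against 61.6, 72.3 and 78.3 CPM in WT (log2 fold change 0.38 ± 0.05 SE, adjusted p = 2.80e-06), while Rcan2 fell (-0.41 ± 0.07).

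Wnt proteins are secreted ligands that stabilise beta-catenin through Frizzled receptors. In this list 26 of 53 genes fell and 6 rose, with a median of -0.31. The Wnt enhancer Rspo1 (chr4:124986430-125009099) had 1.05, 1.33 and 1.63 CPM in R6/2 vehicle, against 4.68, 6.21 and 9.79 CPM in WT (log2 fold change -2.29 ± 0.34 SE, adjusted p = 7.84e-06). Ranges were apart, with WT replicate 1 highest, and Rspo1 is also in the cortical marker list, whose sums overlapped (54 to 125 CPM against 73 to 179 CPM in WT). The ligands Wnt4 (-1.94 ± 0.31) and Wnt7a (-0.90 ± 0.09), the transcription factor Tcf7 (-1.40 ± 0.10) and the feedback target Axin2 (-0.31 ± 0.09) fell. Beta-catenin itself, Ctnnb1, rose slightly (0.12 ± 0.04). Wls, which carries Wnt proteins to the cell surface, had 39.7, 44.2 and 47.3 CPM in R6/2 vehicle, against 30.6, 38.3 and 46.1 CPM in WT (log2 fold change 0.20 ± 0.08 SE, adjusted p = 0.04999) and lost its call under 10 of 15 single-library omissions.

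The TGF-beta and bone morphogenetic protein (BMP) list had 26 lower and 8 higher genes of 48. Acvrl1, a BMP9 receptor of endothelial cells, had 14.4, 15.9 and 19.0 CPM in R6/2 vehicle, against 35.6, 45.4 and 61.8 CPM in WT (log2 fold change -1.49 ± 0.11 SE, adjusted p = 1.99e-10). The groups did not overlap. Endothelial and pericyte markers had a median log2 fold change of -0.33, and the part of these cells in the fall of Acvrl1 was not tested. The activin antagonist Fst averaged 0.478 ± 0.119 CPM in R6/2 vehicle and 3.93 ± 0.397 CPM in WT (-3.03 ± 0.16) and the activin subunit Inhba 1.19 ± 0.288 CPM in R6/2 vehicle and 3.98 ± 1.07 CPM in WT (-1.76 ± 0.27). Id4 (-1.03 ± 0.07), Id2 (-0.92 ± 0.11) and Id3 (-0.60 ± 0.14), direct targets of BMP signals, fell. The higher genes included the intracellular transducers Smad2 (0.34 ± 0.05), Smad4 (0.19 ± 0.06), Smad1 (0.19 ± 0.06) and Smad5 (0.18 ± 0.04), and the activin receptor Acvr2a with 58.8, 66.7 and 71.7 CPM in R6/2 vehicle, against 36.2, 50.8 and 60.0 CPM in WT (log2 fold change 0.38 ± 0.07 SE, adjusted p = 1.66e-04), whose groups overlapped.

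In the Notch list 10 genes fell and 3 rose of 28, and 6 fell and 6 rose with library totals. The ligand Jag1 had 8.59, 9.58 and 11.2 CPM in R6/2 vehicle, against 14.6, 17.4 and 23.2 CPM in WT (log2 fold change -0.91 ± 0.10 SE, adjusted p = 6.25e-08) and did not overlap, and the target genes Hey1 (-0.72 ± 0.07) and Hes5 (-0.64 ± 0.15) fell. Hes6, an antagonist of Hes1, had 6.73, 7.53 and 8.76 CPM in R6/2 vehicle, against 4.85, 5.57 and 7.74 CPM in WT (log2 fold change 0.43 ± 0.10 SE, adjusted p = 0.00128) with overlap. In the insulin, IGF and mTOR list 13 fell and 7 rose of 45, turning to 9 lower and 20 higher with library totals. Igfbp5, an IGF-binding protein, had 57.1, 67.7 and 76.6 CPM in R6/2 vehicle, against 164, 184 and 211 CPM in WT (log2 fold change -1.43 ± 0.07 SE, adjusted p = 2.25e-13), with no overlap, and Igfbp4 averaged 17.3 ± 1.37 CPM in R6/2 vehicle and 41.3 ± 2.92 CPM in WT (-1.26 ± 0.08). The mTOR inhibitor Deptor (-1.01 ± 0.09), the transcription factor Foxo1 (-0.77 ± 0.09) and the kinase Akt2 (-0.75 ± 0.07) fell, and Rictor of mTOR complex 2 rose (0.35 ± 0.07). The insulin receptor substrate Irs1 averaged 12.2 ± 2.04 CPM in R6/2 vehicle and 9.07 ± 2.20 CPM in WT (0.43 ± 0.17), a call lost under 7 of 15 single-library omissions.

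Neuropeptide precursors and the enzymes that cut them had 19 lower and 3 higher genes of 31 (median -0.53). Pthlh, the parathyroid hormone-related peptide, had 0.932, 1.27 and 1.44 CPM in R6/2 vehicle, against 3.98, 5.17 and 7.39 CPM in WT (log2 fold change -2.14 ± 0.18 SE, adjusted p = 3.01e-09), and the thyrotropin-releasing hormone gene Trh averaged 1.26 ± 0.181 CPM in R6/2 vehicle and 5.31 ± 1.69 CPM in WT (-2.14 ± 0.42). Crh fell furthest (-3.74 ± 0.64) but averaged 0.134 ± 0.124 CPM in R6/2 vehicle and 1.57 ± 0.695 CPM in WT. The granins Chgb (-0.53 ± 0.06) and Chga (-0.42 ± 0.11) and the processing enzymes Pcsk2 (-0.44 ± 0.09) and Cpe (-0.38 ± 0.08) fell. Pcsk1, the other main prohormone convertase, rose, with 10.54, 12.6 and 14.7 CPM in R6/2 vehicle, against 3.87, 7.36 and 9.91 CPM in WT (log2 fold change 0.81 ± 0.18 SE, adjusted p = 7.25e-04) and no overlap. Pam, which amidates peptides, rose too (0.24 ± 0.04).

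Carbonic anhydrases convert carbon dioxide and bicarbonate and so buffer pH around synapses. Of 13 tested, 7 fell and 1 rose (median -0.63). Car12, a membrane-bound isoform, had 13.5, 16.0 and 26.2 CPM in R6/2 vehicle, against 59.4, 78.5 and 92.1 CPM in WT (log2 fold change -2.12 ± 0.21 SE, adjusted p = 1.92e-08), and Car11, a member without catalytic activity, had 92.0, 101 and 131 CPM in R6/2 vehicle, against 221, 269.7 and 374 CPM in WT (log2 fold change -1.34 ± 0.11 SE, adjusted p = 2.44e-09). Neither overlapped. The cytosolic isoforms Car2, abundant in oligodendrocytes, and Car7, of neurons, averaged 130.2 ± 11.8 CPM in R6/2 vehicle and 269 ± 20.6 CPM in WT (-1.04 ± 0.10) and 5.65 ± 1.03 CPM in R6/2 vehicle and 11.5 ± 0.994 CPM in WT (-1.03 ± 0.11).

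Among ion pumps and exchangers 15 fell and 6 rose of 34, but 13 did each with library totals. Slc9a5, a sodium-proton exchanger, had 30.6, 33.0 and 36.0 CPM in R6/2 vehicle, against 69.1, 74.3 and 100.4 CPM in WT (log2 fold change -1.28 ± 0.09 SE, adjusted p = 1.44e-10) and did not overlap. The plasma membrane calcium pumps Atp2b1 (-0.87 ± 0.13) and Atp2b2 (-0.62 ± 0.08) and the sodium-calcium exchanger Slc8a2 (-1.08 ± 0.10) fell. Slc9a7, a proton exchanger of the Golgi, averaged 14.97 ± 2.86 CPM in R6/2 vehicle and 9.75 ± 3.65 CPM in WT (0.62 ± 0.22) and was not called without R6/2 vehicle replicate 6 or with the library tag as a term. Voltage-gated calcium channel genes (Cacna) had 7 lower and 2 higher of 13, and 4 of each with library totals. Cacna2d3 had 142, 161 and 174 CPM in R6/2 vehicle, against 234, 287 and 305 CPM in WT (log2 fold change -0.81 ± 0.13 SE, adjusted p = 2.40e-05) and Cacna2d1, an auxiliary subunit of the same kind, 157, 172 and 189 CPM in R6/2 vehicle, against 107, 133 and 142 CPM in WT (log2 fold change 0.40 ± 0.07 SE, adjusted p = 7.94e-05), both without overlap. Inward rectifier potassium channels (Kcnj) had 9 lower and 0 higher of 13, and 4 lower and 0 higher with library totals. Kcnj4 had 76.7, 81.5 and 89.3 CPM in R6/2 vehicle, against 142, 166 and 211 CPM in WT (log2 fold change -1.05 ± 0.17 SE, adjusted p = 2.18e-05), with no overlap.

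Of 41 chloride, TRP and HCN channel genes 12 fell and 10 rose, or 11 and 16 with library totals. Ano3, a relative of the calcium-activated chloride channels, averaged 198 ± 17.6 CPM in R6/2 vehicle and 425 ± 55.7 CPM in WT (-1.09 ± 0.18). Of the pacemaker channels, Hcn3 rose (0.52 ± 0.12) and Hcn2 fell (-0.34 ± 0.07). In metal handling, the 3 metallothioneins Mt2 (-0.91 ± 0.15), Mt1 (-0.83 ± 0.15) and Mt3 (-0.40 ± 0.09), which bind zinc and copper, and ferritin heavy chain Fth1 (-0.57 ± 0.10) fell. The zinc importer Slc39a2 had 2.69, 4.25 and 7.09 CPM in R6/2 vehicle, against 9.93, 13.0 and 17.3 CPM in WT (log2 fold change -1.56 ± 0.15 SE, adjusted p = 1.24e-08) and did not overlap. The copper pump Atp7a averaged 10.8 ± 1.75 CPM in R6/2 vehicle and 7.42 ± 2.14 CPM in WT (0.54 ± 0.15). The list as a whole was 8 higher and 12 lower of 43, or 19 higher and 10 lower with library totals.

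Cell adhesion genes moved in both directions, and the clustered protocadherins mostly upward. These are neuronal surface proteins that give each neuron an identity for self-recognition, and they lie in 3 tandem arrays on chromosome 18. Of 22 Pcdhb genes 18 rose and 0 fell (median 0.54), the highest share among the 145 families. Of 12 Pcdha genes 9 rose and 0 fell (median 0.57), and of 12 Pcdhga genes 7 rose and 0 fell (median 0.35). Pcdhb9 had 19.9, 22.8 and 24.0 CPM in R6/2 vehicle, against 9.79, 12.1 and 14.1 CPM in WT (log2 fold change 0.86 ± 0.09 SE, adjusted p = 3.82e-08), Pcdhb22 had 19.2, 21.3 and 27.3 CPM in R6/2 vehicle, against 12.8, 14.6 and 15.1 CPM in WT (log2 fold change 0.63 ± 0.07 SE, adjusted p = 9.55e-08) and Pcdha4 had 14.5, 15.8 and 19.9 CPM in R6/2 vehicle, against 8.25, 10.4 and 13.7 CPM in WT (log2 fold change 0.67 ± 0.10 SE, adjusted p = 6.30e-06). All 3 were without overlap between the groups. In all, 13 of the 22 Pcdhb genes were, against 3787 of all 17394 genes tested. With library totals 20 Pcdhb genes rose, without WT replicate 1 the number was 16, and no Pcdhb gene fell in either. Without WT replicate 1, 9 Pcdha genes rose and 0 fell, and 6 Pcdhga genes rose and 1 fell. Pcdha genes share constant exons, as Pcdhga genes do, so the authors' quantifier had to split those reads between members, while Pcdhb genes share no such exon. Outside the clusters, Pcdh20 on chromosome 14 had 18.5, 31.9 and 33.3 CPM in R6/2 vehicle, against 8.66, 9.93 and 11.6 CPM in WT (log2 fold change 1.502 ± 0.11 SE, adjusted p = 2.32e-10) and Pcdh19 on the X chromosome averaged 50.5 ± 4.60 CPM in R6/2 vehicle and 23.4 ± 3.92 CPM in WT (1.11 ± 0.12). Cdh4 (-0.88 ± 0.16), Cdh13 (-0.82 ± 0.07) and Cdh9 (-0.83 ± 0.10), which are classical or related cadherins, fell.

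**Figure D3:**
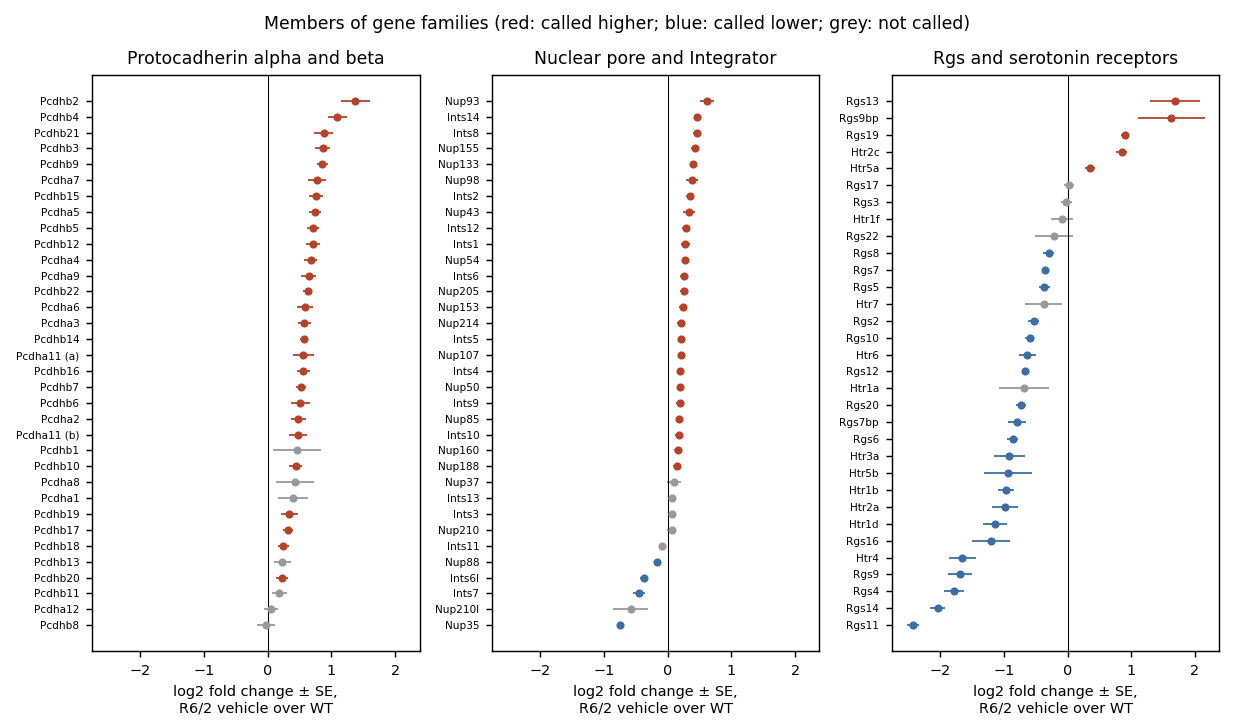
Log2 fold change with its SE, R6/2 vehicle over WT striatum, for each tested member of 6 gene families, sorted within each panel. Most protocadherin, nuclear pore and Integrator genes lie to the right of 0 and most Rgs and serotonin receptor genes to the left; (a) and (b) mark 2 Ensembl genes that carry the symbol Pcdha11.

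Axon guidance lists had no balance that held across scalings. The commissural guidance receptor Robo3 (chr9:37415669-37433246) had 2.99, 4.99 and 6.07 CPM in R6/2 vehicle, against 21.2, 25.6 and 34.5 CPM in WT (log2 fold change -2.46 ± 0.23 SE, adjusted p = 1.37e-08), a wide gap. The secreted guidance protein Slit2 had 16.3, 20.7 and 26.3 CPM in R6/2 vehicle, against 7.57, 13.1 and 16.6 CPM in WT (log2 fold change 0.69 ± 0.19 SE, adjusted p = 0.00426) with overlap. Sema7a, a membrane-anchored semaphorin, had 54.7, 64.8 and 71.9 CPM in R6/2 vehicle, against 122, 143 and 148 CPM in WT (log2 fold change -1.13 ± 0.08 SE, adjusted p = 3.17e-10), and Sema3d had 9.35, 11.7 and 12.4 CPM in R6/2 vehicle, against 5.81, 7.29 and 9.93 CPM in WT (log2 fold change 0.63 ± 0.11 SE, adjusted p = 5.25e-05), of which Sema7a alone did not overlap. Plxnd1, a plexin receptor, averaged 69.8 ± 12.0 CPM in R6/2 vehicle and 144 ± 23.1 CPM in WT (-1.03 ± 0.21). Epha10 had 11.9, 13.4 and 19.2 CPM in R6/2 vehicle, against 19.1, 26.5 and 30.1 CPM in WT (log2 fold change -0.81 ± 0.17 SE, adjusted p = 4.14e-04) and Epha3 had 5.59, 5.74 and 7.12 CPM in R6/2 vehicle, against 2.49, 4.15 and 4.70 CPM in WT (log2 fold change 0.64 ± 0.15 SE, adjusted p = 9.20e-04), of which Epha3 alone did not overlap.

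Synaptic adhesion genes were 8 higher and 15 lower of 50, or 15 higher and 11 lower with library totals. Cntnap3 had 7.204, 7.86 and 9.66 CPM in R6/2 vehicle, against 15.8, 25.4 and 29.5 CPM in WT (log2 fold change -1.59 ± 0.13 SE, adjusted p = 1.42e-09) and Cntn6 had 29.3, 35.1 and 36.4 CPM in R6/2 vehicle, against 16.5, 19.2 and 22.5 CPM in WT (log2 fold change 0.79 ± 0.06 SE, adjusted p = 1.68e-09), both apart. Within the Slitrk family of synapse organisers 5 of the called members rose, from Slitrk5 (0.34 ± 0.06) to Slitrk6 (0.62 ± 0.19), and Slitrk2 fell (-0.15 ± 0.05). The neuronal pentraxins Nptx2 (-0.92 ± 0.26), Nptx1 (-0.85 ± 0.25) and Nptxr (-0.64 ± 0.18), which gather AMPA receptors, all fell. Collagens were 14 lower and 2 higher of 43, with 4 higher without R6/2 vehicle replicate 4. Col6a4 had 2.06, 3.62 and 5.54 CPM in R6/2 vehicle, against 6.52, 16.2 and 21.0 CPM in WT (log2 fold change -2.14 ± 0.24 SE, adjusted p = 1.23e-07), while Col9a2 had 10.1, 16.5 and 19.5 CPM in R6/2 vehicle, against 5.13, 7.06 and 9.26 CPM in WT (log2 fold change 1.21 ± 0.17 SE, adjusted p = 3.13e-06), and neither overlapped. In the perineuronal matrix list 10 fell and 5 rose of 33, with the lecticans Ncan (-0.60 ± 0.06) and Bcan (-0.52 ± 0.08) and the link protein Hapln1 (-0.88 ± 0.07) lower and the tenascin Tnr higher (0.31 ± 0.09). The hyaluronan synthase Has3 averaged 3.96 ± 0.400 CPM in R6/2 vehicle and 7.69 ± 0.766 CPM in WT (-0.95 ± 0.10).

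Guanine nucleotide exchange factors switch small GTPases on, and GTPase activating proteins switch them off. Arhgef39, an exchange factor, had 0.584, 0.863 and 1.02 CPM in R6/2 vehicle, against 4.10, 4.62 and 10.00 CPM in WT (log2 fold change -2.79 ± 0.22 SE, adjusted p = 6.95e-10), and Arhgap33, which acts in dendritic spines, had 165, 182 and 240.2 CPM in R6/2 vehicle, against 407, 440.0 and 538 CPM in WT (log2 fold change -1.22 ± 0.09 SE, adjusted p = 6.62e-10). Both were without overlap. Arhgef6 averaged 20.004 ± 1.15 CPM in R6/2 vehicle and 16.7 ± 1.66 CPM in WT (0.25 ± 0.07), and Arhgap36 6.71 ± 2.78 CPM in R6/2 vehicle and 2.92 ± 1.26 CPM in WT (1.04 ± 0.43). Exchange factors were 5 higher and 9 lower of 24, and activating proteins 8 higher and 9 lower of 33, and both balances turned with library totals, to 9 and 6 and to 12 and 5. Without R6/2 vehicle replicate 6, 3 exchange factors were higher. Arhgap36 lost its call under 12 of 15 single-library omissions. Among 55 Rab GTPases, which direct vesicles, 19 rose and 12 fell. Rab9b had 46.7, 55.2 and 58.0 CPM in R6/2 vehicle, against 27.5, 32.6 and 35.4 CPM in WT (log2 fold change 0.68 ± 0.08 SE, adjusted p = 5.04e-07) without overlap, and Rab37 had 2.35, 2.54 and 6.81 CPM in R6/2 vehicle, against 5.39, 8.37 and 23.0 CPM in WT (log2 fold change -1.75 ± 0.36 SE, adjusted p = 2.92e-04) with overlap. The synaptic vesicle member Rab3b averaged 22.4 ± 1.70 CPM in R6/2 vehicle and 45.5 ± 6.43 CPM in WT (-1.03 ± 0.13). Of 35 kinesins 9 rose and 8 fell, shares near those over all genes, and 17 and 5 did with library totals. The higher motors included the mitotic Kif4 (1.06 ± 0.16), Kif11 (0.96 ± 0.14) and Kif18a (0.93 ± 0.15), and Kif7, a Hedgehog pathway motor, had 6.31, 7.70 and 9.19 CPM in R6/2 vehicle, against 2.93, 3.86 and 4.51 CPM in WT (log2 fold change 1.004 ± 0.10 SE, adjusted p = 4.23e-08). Kif17, a dendritic motor, averaged 40.9 ± 7.55 CPM in R6/2 vehicle and 63.4 ± 11.9 CPM in WT (-0.63 ± 0.16). The axonal motors Kif5c (-0.61 ± 0.05) and Kif5a (-0.38 ± 0.08) fell. Of the intermediate filaments 10 fell and 4 rose of 20, and 2 rose without R6/2 vehicle replicate 5, WT replicate 2 or WT replicate 6. Nefm (-0.82 ± 0.10) and Nefh (-0.56 ± 0.21) were lower, while Vim had 39.8, 46.4 and 56.1 CPM in R6/2 vehicle, against 26.9, 31.1 and 41.7 CPM in WT (log2 fold change 0.57 ± 0.07 SE, adjusted p = 8.99e-07), with overlap. The keratin gene Krt9 averaged 11.1 ± 1.53 CPM in R6/2 vehicle and 29.1 ± 3.90 CPM in WT (-1.39 ± 0.14). Tuba4a, a tubulin of mature neurons, had 189, 215 and 287 CPM in R6/2 vehicle, against 321, 355 and 372 CPM in WT (log2 fold change -0.66 ± 0.06 SE, adjusted p = 3.09e-09) and did not overlap. Tubulins were 2 higher and 6 lower of 14, or 3 and 2 with library totals, and Tubb6 averaged 5.43 ± 0.646 CPM in R6/2 vehicle and 4.13 ± 0.489 CPM in WT (0.39 ± 0.10). Of 53 motile cilia genes 8 fell and 5 rose, and the 10 ependymal and choroid plexus markers summed to 48 to 125 CPM against 48 to 108 CPM in WT. With library totals 6 fell and 13 rose, and 3 rose without R6/2 vehicle replicate 3. The dynein Dnah1 averaged 5.35 ± 0.653 CPM in R6/2 vehicle and 17.2 ± 1.22 CPM in WT (-1.71 ± 0.24) and the radial spoke gene Rsph3a 9.93 ± 0.958 CPM in R6/2 vehicle and 8.14 ± 1.56 CPM in WT (0.28 ± 0.11), which lost its call under 11 of 15 omissions.

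Of the chromatin and transcription lists, those of zinc finger genes, remodellers and lysine methylation enzymes leaned upward, against 25.8% higher and 24.5% lower over all genes tested. Of 368 Zfp zinc finger genes, mostly sequence-specific repressors, 169 (45.9%) rose and 28 (7.61%) fell, with a median of 0.17. Zfp92 had 7.45, 8.53 and 10.0 CPM in R6/2 vehicle, against 2.78, 3.83 and 4.53 CPM in WT (log2 fold change 1.16 ± 0.14 SE, adjusted p = 7.16e-07), without overlap. Of the called members Zfp365, a neuronal gene, fell furthest, with 327, 370.3 and 397 CPM in R6/2 vehicle, against 578, 617 and 687 CPM in WT (log2 fold change -0.75 ± 0.10 SE, adjusted p = 2.69e-06), also without overlap. The list of SWI/SNF and CHD remodellers, which slide or evict nucleosomes, had 21 higher and 4 lower of 38. It includes Arid5b and Arid3b, which are not subunits of these complexes. The remodelling helicase Chd3 had 690.3, 824 and 903 CPM in R6/2 vehicle, against 485, 592 and 660.3 CPM in WT (log2 fold change 0.45 ± 0.07 SE, adjusted p = 8.29e-06). Arid5b had 23.5, 33.6 and 38.6 CPM in R6/2 vehicle, against 6.34, 16.6 and 20.9 CPM in WT (log2 fold change 0.98 ± 0.15 SE, adjusted p = 1.44e-05) and Arid3b 7.40, 7.99 and 9.36 CPM in R6/2 vehicle, against 14.4, 17.3 and 19.3 CPM in WT (log2 fold change -1.01 ± 0.09 SE, adjusted p = 3.47e-09), and none of these 3 overlapped. The lower genes of the list also included the SWI/SNF subunits Smarcd1 (-0.72 ± 0.06) and Smarcd3 (-0.78 ± 0.07), of which Smarcd3 is typical of neurons and muscle.

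Lysine methyltransferases and demethylases had 27 higher and 7 lower of 59. Suv39h1, which writes the H3K9 trimethyl mark of silent chromatin, had 28.8, 33.1 and 39.4 CPM in R6/2 vehicle, against 19.2, 23.5 and 24.8 CPM in WT (log2 fold change 0.56 ± 0.06 SE, adjusted p = 1.38e-07), and its paralog Suv39h2 rose as well (0.50 ± 0.10). Kdm4b, which removes H3K9 methylation, had 73.8, 79.8 and 88.9 CPM in R6/2 vehicle, against 110.5, 119 and 133 CPM in WT (log2 fold change -0.57 ± 0.05 SE, adjusted p = 5.58e-09), and the related demethylase Kdm3a fell (-0.54 ± 0.06). Suv39h1 and Kdm4b were each without overlap. Of 18 histone deacetylases and sirtuins 5 rose (27.8%, near the share over all genes) and 3 fell. Hdac1 had 27.2, 30.3 and 37.4 CPM in R6/2 vehicle, against 18.3, 24.4 and 28.0 CPM in WT (log2 fold change 0.38 ± 0.09 SE, adjusted p = 0.00204) with overlap, and Sirt7, a nucleolar deacetylase, had 27.5, 29.3 and 31.1 CPM in R6/2 vehicle, against 42.3, 47.3 and 63.6 CPM in WT (log2 fold change -0.71 ± 0.07 SE, adjusted p = 1.47e-08) without. The DNA methylation list was nearly even, with 8 higher and 7 lower of 22 (9 and 3 with library totals) and median -0.06. In it Tet2, which oxidises methylcytosine, had 99.7, 122 and 139 CPM in R6/2 vehicle, against 63.6, 72.9 and 80.3 CPM in WT (log2 fold change 0.76 ± 0.07 SE, adjusted p = 1.81e-08), without overlap. Dnmt1 rose (0.24 ± 0.06) and Dnmt3a fell (-0.29 ± 0.06). Gadd45g, linked to demethylation, averaged 4.70 ± 0.829 CPM in R6/2 vehicle and 7.45 ± 2.71 CPM in WT (-0.68 ± 0.18).

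**Figure D4:**
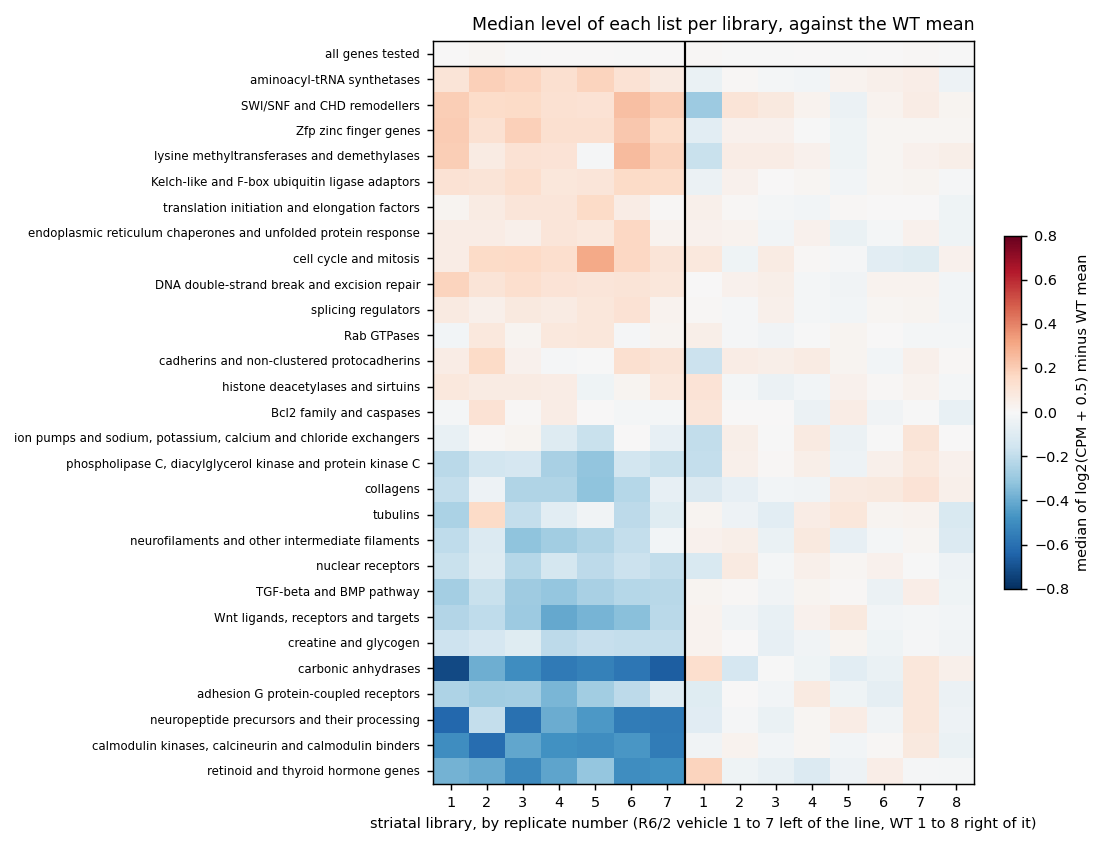
Median over list members of log2(CPM + 0.5) minus the WT mean, in each striatal library, for all genes and for the 14 lists with the highest and the 14 with the lowest net share of higher genes; R6/2 vehicle libraries stand left of the line. The retinoid and thyroid list lies between -0.51 and -0.31 in R6/2 vehicle libraries and between -0.11 and 0.18 in WT libraries.

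RNA handling lists also held more higher than lower genes. Of 96 splicing regulators 33 rose and 15 fell. Rbm11 had 8.49, 9.44 and 10.7 CPM in R6/2 vehicle, against 4.03, 4.86 and 5.45 CPM in WT (log2 fold change 0.98 ± 0.08 SE, adjusted p = 6.57e-10) and Celf3 had 102, 104 and 121 CPM in R6/2 vehicle, against 144, 153 and 178 CPM in WT (log2 fold change -0.53 ± 0.07 SE, adjusted p = 5.86e-07), each without overlap. The neuronal splicing factors Rbfox1 (-0.50 ± 0.12) and Rbfox3 (-0.32 ± 0.09) were lower, and the serine-arginine factor Srsf6 higher (0.44 ± 0.04). Nuclear pore genes (Nup) had 14 higher and 2 lower of 19. Nup93, of the inner ring, had 60.8, 66.5 and 75.4 CPM in R6/2 vehicle, against 38.002, 44.5 and 48.7 CPM in WT (log2 fold change 0.61 ± 0.11 SE, adjusted p = 7.81e-05), and Nup35, of the same ring, had 13.9, 14.7 and 16.9 CPM in R6/2 vehicle, against 22.7, 24.7 and 29.0 CPM in WT (log2 fold change -0.74 ± 0.06 SE, adjusted p = 4.79e-10), both without overlap. Integrator subunits (Ints), which cut nascent small nuclear RNAs, had 10 higher and 2 lower of 15, and DExH helicases (Dhx) 10 higher and 2 lower of 16. Prpf pre-mRNA processing genes had 8 higher and 2 lower of 13, and Prpf4b, a spliceosome kinase, had 122, 135 and 155 CPM in R6/2 vehicle, against 77.5, 100.2 and 109 CPM in WT (log2 fold change 0.46 ± 0.06 SE, adjusted p = 2.32e-06). In these 4 families the balance could hardly turn with library totals or FPKM, which moved all genes upward. Relative to the median over all genes, the family medians with library totals were 0.20 (Nup), 0.19 (Ints), 0.18 (Dhx) and 0.15 (Prpf). On the FPKM scale they were 0.18, 0.21, 0.16 and 0.18 in the same order.

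In translation 25 of 61 initiation and elongation factor genes rose and 6 fell. Eif2ak2, the double-stranded RNA-activated kinase PKR, had 12.0, 14.1 and 15.8 CPM in R6/2 vehicle, against 5.39, 7.19 and 11.7 CPM in WT (log2 fold change 0.89 ± 0.12 SE, adjusted p = 1.68e-06), without overlap. The other 3 kinases of eIF2 alpha rose too: Eif2ak4 (0.38 ± 0.07), Eif2ak1 (0.32 ± 0.04) and Eif2ak3 (0.24 ± 0.05). Eef1a1, an elongation factor, had 2951, 3097 and 3399 CPM in R6/2 vehicle, against 2516, 2675 and 3091 CPM in WT (log2 fold change 0.21 ± 0.05 SE, adjusted p = 8.16e-04), with overlap. The initiation factor subunit Eif3k averaged 54.1 ± 4.75 CPM in R6/2 vehicle and 65.9 ± 8.64 CPM in WT (-0.29 ± 0.07). Of 20 aminoacyl-tRNA synthetases tested 11 rose and 1 fell. Wars had 76.8, 93.0 and 96.5 CPM in R6/2 vehicle, against 64.3, 70.7 and 85.4 CPM in WT (log2 fold change 0.31 ± 0.06 SE, adjusted p = 3.44e-04), with overlap. The exception, Kars, had 73.4, 79.9 and 86.6 CPM in R6/2 vehicle, against 82.4, 88.0 and 93.7 CPM in WT (log2 fold change -0.15 ± 0.04 SE, adjusted p = 0.00291), and was not called with library totals or on the FPKM scale. Of 77 mitochondrial ribosomal protein genes 8 rose and 9 fell, against 34 and 0 with library totals, and 13 rose without WT replicate 1. Mrpl39 had 24.6, 28.2 and 29.7 CPM in R6/2 vehicle, against 18.6, 19.7 and 20.8 CPM in WT (log2 fold change 0.49 ± 0.04 SE, adjusted p = 2.40e-09), without overlap. Mrps21 averaged 26.1 ± 2.39 CPM in R6/2 vehicle and 32.05 ± 4.70 CPM in WT (-0.29 ± 0.08) and was not called with library totals or on the FPKM scale.

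Of the protein quality control lists, the ubiquitin ligase adaptors (44.6% higher) and the endoplasmic reticulum genes (38.9%) leaned upward. Autophagy genes (24.4%) and lysosomal genes (28.3%) were near the 25.8% over all genes tested. Kelch-like and F-box genes, which bring substrates to cullin ubiquitin ligases, had 41 higher and 12 lower of 92. Fbxl16, an F-box protein of brain (chr17:25809085-25821255), had 698, 766 and 835 CPM in R6/2 vehicle, against 1659, 1869 and 2483 CPM in WT (log2 fold change -1.32 ± 0.12 SE, adjusted p = 8.41e-09), a wide gap. Klhl14 had 3.39, 4.99 and 7.04 CPM in R6/2 vehicle, against 1.62, 2.12 and 2.57 CPM in WT (log2 fold change 1.26 ± 0.18 SE, adjusted p = 4.69e-06) and did not overlap. Klhl12 (0.61 ± 0.05) and Klhl9 (0.38 ± 0.05) were higher. In the endoplasmic reticulum list 14 rose and 4 fell of 36. The stress sensor Ern1 had 16.6, 19.5 and 21.6 CPM in R6/2 vehicle, against 11.9, 14.2 and 15.9 CPM in WT (log2 fold change 0.46 ± 0.07 SE, adjusted p = 1.03e-05), while the sensor Atf6 had 71.5, 75.5 and 81.3 CPM in R6/2 vehicle, against 87.0, 118 and 123 CPM in WT (log2 fold change -0.55 ± 0.08 SE, adjusted p = 3.88e-06), each without overlap. Autophagy genes were 10 higher and 8 lower of 41, with Wdfy3, a scaffold for aggregate clearance, at 239, 304 and 369 CPM in R6/2 vehicle, against 151, 238 and 253 CPM in WT (log2 fold change 0.45 ± 0.09 SE, adjusted p = 4.46e-04) and overlapping. The autophagy receptor Calcoco1 averaged 112 ± 3.09 CPM in R6/2 vehicle and 139.9 ± 5.75 CPM in WT (-0.33 ± 0.05). Lysosomal genes were 17 higher and 11 lower of 60, with 6 lower without R6/2 vehicle replicate 1 and 7 lower without WT replicate 1 or WT replicate 7. Atp6v0a1 of the proton pump had 576, 599.6 and 656 CPM in R6/2 vehicle, against 397, 446 and 492 CPM in WT (log2 fold change 0.44 ± 0.04 SE, adjusted p = 1.18e-08), without overlap, and the pump subunits Atp6v1a (0.42 ± 0.06) and Atp6v0c (0.29 ± 0.07) rose. Idua, which degrades glycosaminoglycans, averaged 20.4 ± 3.02 CPM in R6/2 vehicle and 28.4 ± 2.60 CPM in WT (-0.47 ± 0.08).

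Genome maintenance and cell cycle lists held more higher than lower genes. Of 50 break and excision repair genes 19 rose and 7 fell. Brca1, of homologous recombination, had 7.88, 8.09 and 9.61 CPM in R6/2 vehicle, against 3.94, 4.59 and 4.97 CPM in WT (log2 fold change 0.88 ± 0.07 SE, adjusted p = 4.41e-10), and Xrcc2 averaged 12.9 ± 0.776 CPM in R6/2 vehicle and 7.19 ± 0.664 CPM in WT (0.84 ± 0.06). Polb, the base excision repair polymerase, had 20.4, 20.9 and 22.5 CPM in R6/2 vehicle, against 26.1, 28.9 and 32.2 CPM in WT (log2 fold change -0.50 ± 0.05 SE, adjusted p = 7.99e-09). Brca1 and Polb were each without overlap. Of 47 cell cycle genes 19 rose and 7 fell. Cdc20 averaged 2.53 ± 0.302 CPM in R6/2 vehicle and 1.25 ± 0.165 CPM in WT (1.02 ± 0.12), while Cdc25b had 7.89, 8.27 and 10.3 CPM in R6/2 vehicle, against 14.9, 18.8 and 20.8 CPM in WT (log2 fold change -1.11 ± 0.10 SE, adjusted p = 4.98e-09), without overlap, and Ccnd2 fell (-0.26 ± 0.08). The spindle protein Tpx2 averaged 9.87 ± 0.977 CPM in R6/2 vehicle and 2.74 ± 0.351 CPM in WT (1.85 ± 0.12). Of 10 immature neuron markers 4 rose and 2 fell, and their sums overlapped, at 142 to 175 CPM against 115 to 143 CPM in WT. Genes of the p53 pathway were 10 higher (32.3%) and 9 lower (29.0%) of 31, against 25.8% and 24.5% over all genes. Rrm2b, a ribonucleotide reductase subunit induced by p53, had 67.8, 72.3 and 78.3 CPM in R6/2 vehicle, against 40.9, 47.7 and 49.3 CPM in WT (log2 fold change 0.61 ± 0.05 SE, adjusted p = 4.09e-10), without overlap, and Plk2, a kinase of active synapses, had 155, 164 and 191 CPM in R6/2 vehicle, against 205, 231 and 257 CPM in WT (log2 fold change -0.43 ± 0.13 SE, adjusted p = 0.00931). Plk2 was not called on the log2(FPKM + 0.1) scale (limma, adjusted p = 0.0713).

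Cell death genes were 7 higher (23.3%) and 4 lower (13.3%) of 30, against 25.8% and 24.5% over all genes. Without R6/2 vehicle replicate 2, 8 were lower. Hrk, a neuronal pro-apoptotic BH3-only gene (chr5:118164648-118189478), had 13.8, 15.9 and 20.03 CPM in R6/2 vehicle, against 69.6, 74.8 and 85.9 CPM in WT (log2 fold change -2.22 ± 0.10 SE, adjusted p = 1.58e-13), one of the 6 largest changes among the 126 named genes. Bid, another BH3-only gene, had 6.04, 8.61 and 10.3 CPM in R6/2 vehicle, against 4.60, 4.94 and 5.95 CPM in WT (log2 fold change 0.65 ± 0.09 SE, adjusted p = 5.47e-06), also without overlap. The apoptosome scaffold Apaf1 averaged 23.6 ± 2.34 CPM in R6/2 vehicle and 15.5 ± 1.43 CPM in WT (0.61 ± 0.07), and the caspase inhibitor Xiap rose (0.31 ± 0.06).

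In metabolism the creatine and glycogen list had 16 lower and 4 higher genes of 29. Ppp1r3c, which targets a phosphatase to glycogen, had 27.3, 28.3 and 31.8 CPM in R6/2 vehicle, against 48.1, 51.5 and 60.5 CPM in WT (log2 fold change -0.87 ± 0.06 SE, adjusted p = 1.23e-10), and its relative Ppp1r3f had 25.3, 27.3 and 31.4 CPM in R6/2 vehicle, against 13.9, 16.1 and 19.9 CPM in WT (log2 fold change 0.75 ± 0.08 SE, adjusted p = 7.25e-08). Both were without overlap. Brain creatine kinase Ckb averaged 959.9 ± 110.2 CPM in R6/2 vehicle and 1442 ± 195 CPM in WT (-0.59 ± 0.10), and the glycogen phosphorylases Pygm (-0.75 ± 0.10), Pygl (-0.25 ± 0.10) and Pygb (-0.14 ± 0.05) fell. Glycogen is stored mainly in astrocytes, whose markers fell as given above. In the pyruvate dehydrogenase and citric acid cycle list 8 rose and 8 fell of 36, or 13 and 4 with library totals. Pdk1, which phosphorylates and inactivates pyruvate dehydrogenase, had 53.9, 56.0 and 59.9 CPM in R6/2 vehicle, against 32.04, 35.8 and 38.3 CPM in WT (log2 fold change 0.66 ± 0.05 SE, adjusted p = 1.60e-10). Pdp1, the phosphatase that reverses this, had 77.5, 87.0 and 88.8 CPM in R6/2 vehicle, against 121, 162 and 201 CPM in WT (log2 fold change -0.95 ± 0.08 SE, adjusted p = 2.05e-09). The groups did not overlap for either gene.

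Serine and one-carbon genes were 6 higher and 11 lower of 32, or 9 and 7 with library totals, with the mitochondrial Shmt2 at 26.9, 28.5 and 30.1 CPM in R6/2 vehicle, against 19.1, 20.03 and 25.8 CPM in WT (log2 fold change 0.44 ± 0.06 SE, adjusted p = 1.41e-06) and the astrocyte enzyme Aldh1l1 at 44.6, 46.2 and 47.5 CPM in R6/2 vehicle, against 57.9, 68.3 and 85.2 CPM in WT (log2 fold change -0.59 ± 0.06 SE, adjusted p = 1.15e-07). The mitochondrial citrate carrier Slc25a1 had 25.6, 27.8 and 29.0 CPM in R6/2 vehicle, against 41.1, 44.7 and 64.2 CPM in WT (log2 fold change -0.76 ± 0.08 SE, adjusted p = 4.66e-08), without overlap and with WT replicate 1 far above the rest. Mitochondrial solute carriers were 10 higher (24.4%) and 8 lower (19.5%) of 41, against 25.8% and 24.5% over all genes. The calcium-dependent carrier Slc25a24 averaged 5.16 ± 0.473 CPM in R6/2 vehicle and 2.70 ± 0.231 CPM in WT (0.94 ± 0.10). Sphingolipid genes were 9 higher and 15 lower of 42, or 14 and 11 with library totals. Smpd3, a neutral sphingomyelinase, had 149, 159.6 and 188 CPM in R6/2 vehicle, against 270.0, 319 and 373 CPM in WT (log2 fold change -0.92 ± 0.15 SE, adjusted p = 2.36e-05), and Sphk2, a sphingosine kinase, had 29.1, 31.4 and 35.8 CPM in R6/2 vehicle, against 21.5, 23.3 and 26.0 CPM in WT (log2 fold change 0.48 ± 0.06 SE, adjusted p = 3.62e-07). Pitpnm3, of the Pitpnm family, had 35.8, 41.7 and 55.7 CPM in R6/2 vehicle, against 90.3, 101 and 109 CPM in WT (log2 fold change -1.24 ± 0.10 SE, adjusted p = 1.89e-09). These 3 did not overlap. Phosphoinositide kinases and phosphatases were 13 higher and 16 lower of 46, or 25 and 7 with library totals, with Mtmr9 at 68.4 ± 6.15 CPM in R6/2 vehicle and 53.2 ± 9.94 CPM in WT (0.36 ± 0.10). The complement list, part of innate immunity, had 8 lower and 1 higher of 27. Cfp, properdin, had 3.57, 5.88 and 7.24 CPM in R6/2 vehicle, against 7.32, 9.33 and 12.5 CPM in WT (log2 fold change -0.73 ± 0.12 SE, adjusted p = 2.38e-05), and clusterin, Clu, averaged 534 ± 20.6 CPM in R6/2 vehicle and 836 ± 105 CPM in WT (-0.64 ± 0.07). C4a averaged 3.38 ± 1.11 CPM in R6/2 vehicle and 7.00 ± 2.18 CPM in WT (-1.02 ± 0.23), and its reads are uncertain because of its close paralog C4b. The median of this list was -0.26, and -0.14 without WT replicate 1.

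By absolute level the largest rises were in abundant neuronal and housekeeping RNAs. Meg3, an imprinted noncoding RNA of chromosome 12, had 6412, 7325 and 8426 CPM in R6/2 vehicle, against 4973, 6523 and 7547 CPM in WT (log2 fold change 0.22 ± 0.08 SE, adjusted p = 0.0241), and Rian, from the same imprinted locus, had 986, 1151 and 1188 CPM in R6/2 vehicle, against 846, 879 and 1083 CPM in WT (log2 fold change 0.30 ± 0.06 SE, adjusted p = 3.11e-04), both with overlap. Meg3 was not called without R6/2 vehicle replicate 6 or 7. The RNA helicase Ddx5 had 1672, 1905 and 2002 CPM in R6/2 vehicle, against 1306, 1398 and 1461 CPM in WT (log2 fold change 0.43 ± 0.05 SE, adjusted p = 3.21e-07), and the synaptic vesicle protein Syp had 703.3, 844 and 888 CPM in R6/2 vehicle, against 523, 593 and 662 CPM in WT (log2 fold change 0.46 ± 0.05 SE, adjusted p = 9.85e-08). Gprasp1, which sorts receptors to lysosomes, had 862, 920.0 and 1016 CPM in R6/2 vehicle, against 480.2, 649 and 681 CPM in WT (log2 fold change 0.55 ± 0.08 SE, adjusted p = 1.14e-05). Ddx5, Syp and Gprasp1 did not overlap. Of the 8 largest falls 5 were in pseudogenes that copy mitochondrial DNA (Gm28437, Gm10925, Gm28661, Gm29216 and Gm28439), reads of which cannot be placed with certainty, and 4 of these were not called on the FPKM scale. The other 3 were the astrocyte glutamate transporter Slc1a2, at 1859 ± 274 CPM in R6/2 vehicle and 3628 ± 391 CPM in WT (-0.96 ± 0.09), the sodium channel subunit Scn4b, at 215 ± 20.9 CPM in R6/2 vehicle and 1838 ± 212 CPM in WT (-3.09 ± 0.26), and the myelin protein Mbp, at 3786 ± 236 CPM in R6/2 vehicle and 5294 ± 683 CPM in WT (-0.48 ± 0.10). The endogenous Htt gene had 197, 246 and 259 CPM in R6/2 vehicle, against 137, 212 and 228 CPM in WT (log2 fold change 0.21 ± 0.08 SE, adjusted p = 0.0424), with overlap, and lost its call under 6 of 15 single-library omissions. How far reads of the human transgene counted toward it was not examined.

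Gene classes differed in how often members changed. Of 14957 protein-coding genes 27.6% rose and 25.6% fell. Of 573 annotated antisense genes 16.9% rose and 23.0% fell, and of 55 bidirectional promoter noncoding RNAs 30.9% rose and 9.09% fell. These classes also differed in level, with a median of 1.01 CPM for antisense genes and 24.4 CPM for protein-coding genes. Of all genes at 1 to 10 CPM 19.8% rose and 24.5% fell, and of those under 1 CPM 10.7% and 17.3%, so the antisense shares were near those of genes at such levels. Without known strand such genes and their partners cannot be told apart. Protein-coding genes of 30 to 100 kb rose most often, 33.0% against 23.7% that fell. Those of up to 5 kb rose least often after those over 300 kb, 18.8% against 27.1% that fell. Level differed with length too, with medians of 10.9 CPM up to 5 kb, 34.6 CPM at 30 to 100 kb and 41.8 CPM over 300 kb. Of all genes at 10 to 100 CPM 33.8% rose and 23.1% fell. The part of level in the length shares was not tested. Of 617 tested genes of the X chromosome 37.8% rose and 16.2% fell, the most unequal split of any chromosome with over 100 tested genes.

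Effects in females and males were compared directly by an interaction, and 0 of 17394 genes (0%) were called. Of these, 773 had an unadjusted p under 0.05, and DESeq2 called 1. Effects in the striatum were also compared with those in the cortex of the same mice, in 1 fit with the animal as a block. The effect differed for 2862 of 18122 genes (15.8%), being more positive in the striatum for 1279 and more negative for 1583. That balance depended on scaling, with 1485 and 1472 by DESeq2 and 1434 and 1400 with RLE size factors. Striatal and cortical WT and R6/2 vehicle libraries share no library tag, and with the tag as a further term 1492 genes were called, 657 more positive and 835 more negative. In the retinoid and thyroid list 7 of 28 genes differed, all more negative in the striatum, and 5 did with the tag term. In the TGF-beta and BMP list 18 of 49 did, 14 of them more negative in the striatum, and 15 with the tag term, 12 of them more negative. In the synaptic adhesion list 20 of 50 did, and 9 with the tag term. The striatal minus cortical effect on the log2 scale was -1.27 ± 0.11 SE (adjusted p = 7.99e-09) for Acvrl1 and -1.34 ± 0.25 SE (adjusted p = 3.95e-04) for Hrk. It was 1.57 ± 0.14 SE (adjusted p = 2.27e-08) for Pcdh20 and 1.15 ± 0.14 SE (adjusted p = 1.64e-06) for Pcsk1. It was -0.44 ± 0.05 SE (adjusted p = 3.00e-07) for Kars and -0.70 ± 0.08 SE (adjusted p = 1.36e-06) for Kdm4b, and 0.77 ± 0.18 SE (adjusted p = 0.00388) for Epha10, which fell by less in the striatum. With the tag term Epha10 was not called (0.78, adjusted p = 0.120), while the other 6 were. Of the genes described at length, Gng7, Camk1g, Car12, Tet2 and Brca1 were not called in this test, which does not show that their effects were alike.

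**Figure D5:**
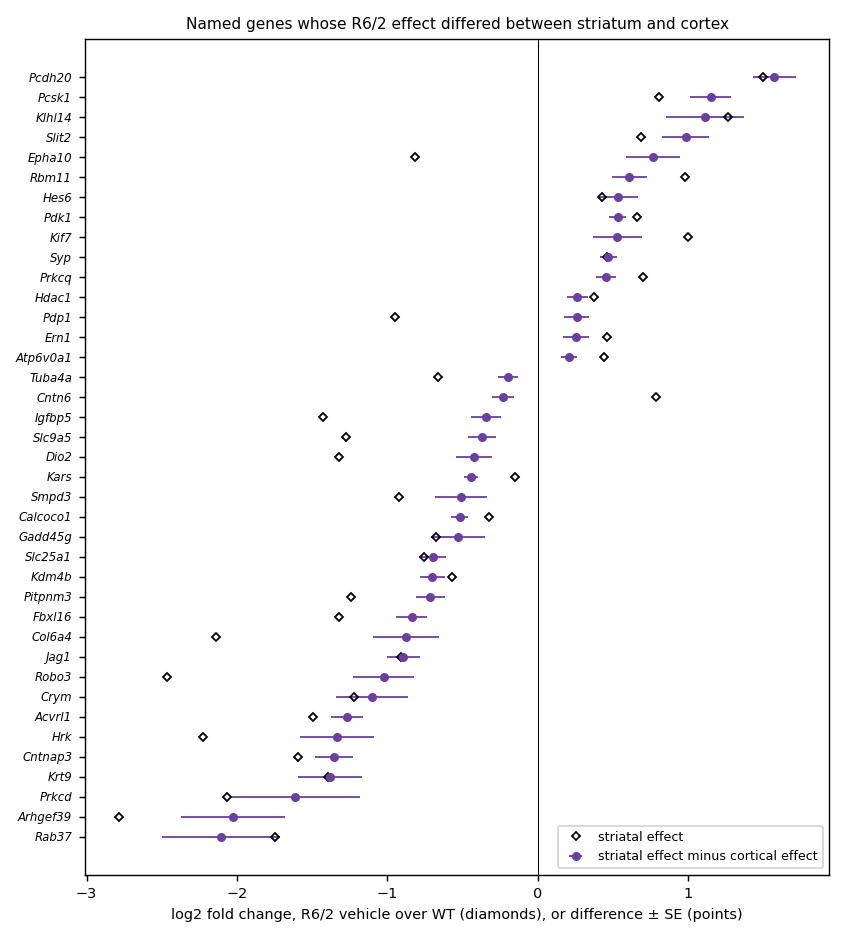
Difference of the R6/2 vehicle effect between striatum and cortex on the log2 scale, with its SE (points), for the named genes reported here in which it was called, beside the striatal effect alone (diamonds). The difference runs from -2.10 in Rab37 to 1.57 in Pcdh20, and with the library tag as a term 20 of these 39 genes, Pcdh20 among them and Rab37 not, were called.

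Promoters were searched for the letters of 5 transcription factor motifs on both strands, in the 250 bases before the RefSeq start of 12393 tested genes. The cyclic AMP response element (CRE, TGACGTCA) was in 2.59% of promoters of lower genes, 3.08% of those of higher genes and 2.94% of those of genes not called. The Egr letters (GCGGGGGCG) were in 6.71% of promoters of lower genes, 5.01% of those of higher genes and 4.92% of those not called. The D-box (TTATGTAA) was in 0.950%, 0.498% and 0.607%, the E-box (CACGTG) in 9.37%, 9.44% and 9.45%, and the metal response letters (TGCGCNC) in 24.7%, 25.5% and 22.8%, in the same order. No share differed by more than 2 percentage points between lower and higher genes, but rare letters such as the D-box could hardly exceed that limit. Relative to their frequency, the D-box and the Egr letters differed most, both with the larger share in lower genes. The D-box was held by 29 lower and 17 higher genes, and the Egr letters by 205 and 171. These differences were not tested. No motif contains another, though matches can share their end bases. Of 94 named genes with a RefSeq promoter 7 held the CRE and 5 the Egr letters. The windows below are from GRCm38.p6, the RefSeq name of the mm10 build, 5′ to 3′ on the strand of the gene, with the matched letters in capitals. In Nr4a1 and Pthlh the Egr letters are on the opposite strand. They are shown because lower and higher genes of the lists above carry the same letters: Dio2, Kif17, Plk2, Nr4a1 and Pthlh fell, and Pcsk1 and Slit2 rose.
Dio2 (CRE, chr12:90739086-90739173, - strand): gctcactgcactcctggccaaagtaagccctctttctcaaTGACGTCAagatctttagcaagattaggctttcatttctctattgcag
Kif17 (CRE, chr4:138262125-138262212, + strand): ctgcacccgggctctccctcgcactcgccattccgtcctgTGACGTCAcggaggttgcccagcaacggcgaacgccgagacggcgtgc
Plk2 (CRE, chr13:110394942-110395029, + strand): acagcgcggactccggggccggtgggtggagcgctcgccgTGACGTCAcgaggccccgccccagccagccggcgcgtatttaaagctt
Pcsk1 (CRE, chr13:75089739-75089826, + strand): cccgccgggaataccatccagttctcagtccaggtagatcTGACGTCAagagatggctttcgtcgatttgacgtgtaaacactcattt
Nr4a1 (Egr, chr15:101266746-101266834, + strand): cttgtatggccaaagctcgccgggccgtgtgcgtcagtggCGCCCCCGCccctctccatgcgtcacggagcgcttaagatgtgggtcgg
Pthlh (Egr, chr6:147264159-147264247, - strand): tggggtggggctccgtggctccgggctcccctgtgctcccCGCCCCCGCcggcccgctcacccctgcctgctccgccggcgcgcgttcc
Slit2 (Egr, chr5:47983050-47983138, + strand): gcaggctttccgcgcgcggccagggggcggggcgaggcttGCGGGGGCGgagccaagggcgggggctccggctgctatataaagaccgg
A match describes these letters only and is no evidence that a factor binds there.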

How the data were processed

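RNA was extracted from the right striatum and sequenced on an Illumina instrument, per the labels' protocols. CASAVA 1.8.2 and mm10 appear in the submitters' processing notes, while the aligner, the quantifier and the handling of strand are not given in the sources consulted. The authors deposited estimated counts per Ensembl gene, of which 33.8% of the values above 0 were not whole numbers (tolerance 1e-06), and FPKM values (fragments scaled to gene length and library size) for the same genes. Of 43346 genes, 42462 (98.0%) were paired with a symbol of the GENCODE annotation of GRCm38, which also gave coordinates.

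Counts were rounded and tested with edgeR 4.0.16 in R 4.3.3: TMM scaling, filterByExpr, and the quasi-likelihood test with sex as a covariate over all 23 striatal libraries, which left 19 residual degrees of freedom. The contrast was R6/2 vehicle minus WT, and p-values were adjusted by Benjamini-Hochberg over all 17394 genes tested. Standard errors were derived from the F statistic. DESeq2 1.42.0 on the counts and limma 3.58.1 on log2(FPKM + 0.1) were alternatives, and FPKM fold changes are on that scale, which understates changes of low genes. A model of 46 libraries with the animal as a block compared striatum with cortex. The script was tested on simulated data. Labels name 1 mouse per library, and no libraries of a group agreed within sampling noise (lowest chi-square per degree of freedom 7.29).

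Named genes are, per list, the called member with the largest change in each direction at 5 CPM or more in the higher group (2 of 1 direction where only that one had any), the 8 largest rises and 8 largest falls in CPM, Gm12695 and Htt. The sex part of the rule, which takes genes called in the interaction, named none. Some genes that the rule names are not reported here. Other genes in the text were chosen after their values were seen. The comparison, lists and families were chosen with earlier results of these data known, so no list is independent evidence. Depth was 30385125 to 36040325 counts per library, and log2 fold changes had a median SE of 0.0859. Promoter sequences are RefSeq's.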

Additional observations from a re-analysis of the deposited data

Results flagged for a closer look

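The effect of R6/2 vehicle against WT differed between striatum and cortex of the same mice in the named genes given here, by the interaction in edgeR's quasi-likelihood test (adjusted p under 0.05). All values here are striatal minus cortical effects on the log2 scale. It was more positive in the striatum in Pcdh20 (1.57), Pcsk1 (1.15), Klhl14 (1.11), Slit2 (0.98) and Epha10 (0.77). Smaller positive differences were measured in Rbm11 (0.61), Hes6 (0.54), Pdk1 (0.53), Kif7 (0.53), Syp (0.47) and Prkcq (0.46). Positive differences were also found in Hdac1 (0.26), Pdp1 (0.26), Ern1 (0.26) and Atp6v0a1 (0.21). The effect was more negative in the striatum in Rab37 (-2.10), Arhgef39 (-2.03), Prkcd (-1.61), Krt9 (-1.38), Cntnap3 (-1.35) and Hrk (-1.34). Next in size were Acvrl1 (-1.27), Crym (-1.10), Robo3 (-1.02), Jag1 (-0.89) and Col6a4 (-0.87). Further negative differences were measured in Fbxl16 (-0.84), Pitpnm3 (-0.71), Kdm4b (-0.70), Slc25a1 (-0.70), Gadd45g (-0.53) and Calcoco1 (-0.52). Smaller ones were in Smpd3 (-0.51), Kars (-0.44), Dio2 (-0.42), Slc9a5 (-0.37), Igfbp5 (-0.34) and Cntn6 (-0.23). The difference was smallest in Tuba4a (-0.20). Tissues share no library tag among the R6/2 vehicle and WT libraries. With the tag as a further term 20 of these 39 genes were called and 19 were not, and none changed sign. Those not called included Rab37 (-0.87), Prkcd (-0.46), Crym (-0.71), Klhl14 (0.24), Slit2 (0.65), Epha10 (0.78), Rbm11 (0.49) and Dio2 (-0.41). The cause of these differences was not tested.

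Single libraries lay far from the rest of their group in the cases given here, by the gap to the nearest library over the group's range. Chance gives about 1 in 20 groups such a library. Values are CPM of the library that lay apart. In WT replicate 1 these were Arhgef39 (10.00), Arhgap33 (538), Rspo1 (9.79), Hes6 (7.74), Irs1 (3.80) and Car11 (374). The same library stood apart in Tnr (114), Sirt7 (63.6), Arid5b (6.34), Gadd45g (13.5), Eif3k (85.9), Mrps21 (42.7) and Wdfy3 (151). Its further cases were Fbxl16 (2483), Rrm2b (40.9), Mtmr9 (31.2), Slc25a1 (64.2), Gm28437 (22386), Gm10925 (21872) and Gm28661 (20956). It was also apart in Gm29216 (16388), Eef1a1 (3091), Gprasp1 (480.2) and Htt (137). In R6/2 vehicle replicate 2 these were Prkcd (34.2), Adgra1 (24.9), Rab37 (6.81), Cdh4 (23.2), Tubb6 (6.72) and Brca1 (9.61). In R6/2 vehicle replicate 5 these were Polb (22.5), Gm28437 (12953), Gm10925 (13640.2) and Gm28661 (13465). In R6/2 vehicle replicate 6 these were Dnah1 (6.69) and Zfp365 (327). In WT replicate 7 these were Wars (85.4) and Rian (1083). Col9a2 (10.1) stood apart in R6/2 vehicle replicate 3, Idua (22.5) in WT replicate 2 and Adgra1 (44.2) in WT replicate 5. No explanation of these values was tested.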

How the results depend on the processing

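The counts of higher and lower genes depended on scaling. With library totals 7015 were higher and 2769 lower, on log2(FPKM + 0.1) 6950 and 2792, and on log2(FPKM + 1) 6861 and 2786. At least 2-fold changes on log2(FPKM + 1) were 24 upward and 183 downward, and 450 were downward on log2(FPKM + 0.1), with or without the filter on low values. In males alone 5495 genes were called, 2580 of them higher, with fewer libraries. Without a count filter 336 genes rose at least 2-fold, and 121 did under a stricter one. The other alternatives called 8855 genes (DESeq2), 8726 (RLE size factors), 7930 (library tag as a covariate), 7494 (within shared tags) and 5848 (females). Leaving out 1 library at a time gave 8262 to 8750 called genes, 4251 to 4557 higher, 4006 to 4193 lower, 196 to 229 upward and 672 to 753 downward at least 2-fold. The sex interaction stayed at 0 to 0 calls, and DESeq2 called 1, which was higher. Under the same omissions the tissue difference was called for 2522 to 3075 genes, 1118 to 1311 more positive and 1386 to 1764 more negative. It was called for 2957 genes by DESeq2 (1485 more positive, 1472 more negative), 2834 with RLE size factors (1434 and 1400), 2394 without a filter (1091 and 1303) and 2013 with no animal block (875 and 1138). With the library tag as a term beside the animal, chosen after seeing the data, it was called for 1492 (657 and 835), with 13 residual degrees of freedom. With the replicate number as a block 8277 genes were called, but same-numbered libraries correlated at only 0.0249 to 0.218, so the numbers were not taken as pairs. No named gene was called in the opposite direction under these alternatives, but some balances of higher and lower genes turned. More genes were lower than higher in males alone (2580 higher, 2915 lower) and within shared tags (3700 and 3794). For the tissue difference the balance turned by DESeq2 and with RLE size factors. In 20 of the 54 lists it turned or was lost with library totals or FPKM. Of the 126 named genes, library totals ended the call of Adgra1, Kars, Mrps21, Gm28661 and Gm29216, and the block that of Wls, Rsph3a and Htt. Calls were also lost for 27 of them in males alone, 21 in females alone, 8 on log2(FPKM + 0.1) (10 without its filter), 9 on log2(FPKM + 1), 5 within shared tags and 3 (Slc9a7, Rsph3a and Htt) with the tag as a covariate. On log2(FPKM + 0.1) these were Adgra1, Kars, Mrps21, Plk2, Gm28437, Gm10925, Gm28661 and Gm29216. No filter ended 4 calls, and RLE size factors, no sex covariate, only 15 libraries and a stricter filter ended 1 each. Where calls were lost the cause was not tested.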
